A study of Mus musculus with 18 samples.

Results

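The DNA replication genes described here are 35 genes whose products load, start and run the replication fork, supply its nucleotides and repack the new DNA. They were taken by symbol from a fixed list, chosen with earlier results of these data known. All 35 were present among the 33235 genes of each of the series' gene tables. The series measured messenger RNA by sequencing in livers of mice that received an antisense oligonucleotide (ASO) joined to GalNAc, a sugar that hepatocytes take up through the asialoglycoprotein receptor. One oligonucleotide was a control (GalNAc-conASO, genotype label WT) and the other targeted Mdm2 (GalNAc-Mdm2ASO, genotype label MDM2 knockdown). All animals ate a disease-inducing diet, either HFHC or CDAHFD, and no group on ordinary chow was used here. CDAHFD is the usual short name of a high-fat diet with defined amino acids that lacks choline, and the labels do not spell out HFHC. Mdm2 encodes the ubiquitin ligase that keeps the p53 protein low. On HFHC there were 4 control and 4 Mdm2ASO samples, but Mdm2ASO replicates 6 and 7 held the same value in every gene and were counted as 1 library, which left 3. On CDAHFD there were 5 samples in each group. Age, sex, dose and length of treatment are not given in the sources used here, and neither is whether replicates were separate animals, so p-values measure the spread between these samples.

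Before a cell copies its DNA, the origin recognition complex, Cdc6 and Cdt1 load the ring of Mcm2 to Mcm7 onto origins. Cdc45, the GINS complex and Mcm10 then turn the loaded ring into the active helicase, DNA polymerase alpha with primase starts each strand, and the clamp Pcna, loaded by replication factor C, holds the main polymerases on DNA. E2F transcription factors drive most of these genes at the entry to S phase, and proteins of the RB family hold E2F back. Most hepatocytes of an adult liver do not divide, so these messages are usually low there and rise in regeneration or when dividing blood-derived cells are present.

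Because E2F sites are the classical shared feature of these promoters, the 250 bases before each start were searched for 4 E2F letter strings of 8 bases (TTTCCCGC, TTTCGCGC, TTTGCCGC and TTTGGCGC, on both strands). RefSeq promoters (GRCm38.p6) were matched by symbol for 29 of the 35 genes. At least 1 string was found in 9 of the 29 (31.0%), against 583 of 27025 genes in the promoter table (2.16%) and 448 of 12758 genes that had a promoter and were tested on HFHC (3.51%). Of 49 further replication genes described below, 40 had a promoter, and 6 of those 40 (15.0%) held a string. CCAAT, a general promoter box searched on both strands, was found in 18 of 29 (62.1%), against 10133 of 27025 genes in the promoter table (37.5%). It was found in 5069 of 12758 genes tested on HFHC (39.7%) and in 21 of the 40 further replication genes (52.5%). The 4 promoters below are shown because these Mcm genes were called differently: Mcm5 and Mcm6 rose strongly on HFHC, Mcm7 was not called on either diet, and Mcm10 was called higher on CDAHFD. They are printed 5′ to 3′ on the gene's strand, with capitals marking the E2F strings in either orientation, and overlapping strings run together. Mcm5 lies on the plus strand at chr8:75109259-75109508, Mcm6 on the minus strand at chr1:128359706-128359955, Mcm7 on the minus strand at chr5:138171884-138172133 and Mcm10 on the minus strand at chr2:5012792-5013041.
Mcm5: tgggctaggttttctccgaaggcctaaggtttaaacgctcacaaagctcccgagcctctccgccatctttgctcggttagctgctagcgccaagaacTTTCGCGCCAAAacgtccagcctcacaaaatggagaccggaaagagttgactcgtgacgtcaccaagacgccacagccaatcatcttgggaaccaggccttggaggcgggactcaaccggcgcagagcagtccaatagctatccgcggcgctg
Mcm6: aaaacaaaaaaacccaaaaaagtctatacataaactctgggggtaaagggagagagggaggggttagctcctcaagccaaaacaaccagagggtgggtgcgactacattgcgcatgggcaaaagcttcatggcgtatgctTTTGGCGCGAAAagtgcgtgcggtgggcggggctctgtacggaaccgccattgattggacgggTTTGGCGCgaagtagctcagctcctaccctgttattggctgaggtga
Mcm7: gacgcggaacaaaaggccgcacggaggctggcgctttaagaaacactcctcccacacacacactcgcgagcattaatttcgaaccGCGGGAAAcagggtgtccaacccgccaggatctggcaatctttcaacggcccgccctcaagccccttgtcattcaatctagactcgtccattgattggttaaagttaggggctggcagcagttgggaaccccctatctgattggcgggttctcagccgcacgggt
Mcm10: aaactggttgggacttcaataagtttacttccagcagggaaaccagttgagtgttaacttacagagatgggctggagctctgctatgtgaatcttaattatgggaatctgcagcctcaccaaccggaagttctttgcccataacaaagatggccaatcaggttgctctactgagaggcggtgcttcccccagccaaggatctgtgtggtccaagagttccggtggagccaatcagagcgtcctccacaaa
Mcm5 held 2 strings, Mcm6 held 3, Mcm7 held 1 and Mcm10 held none in this window. The table lists more than 1 promoter for Fen1, Lig1, Mcm7 and Uhrf1, and a gene counted as holding a string where any of its promoters did. For Mcm7 and Uhrf1 the other listed promoter held none, and the Mcm7 promoter printed is the one with the string. Of the 9 genes with a string (Cdc6, Gins3, Mcm5, Mcm6, Mcm7, Orc1, Pola1, Rfc3 and Uhrf1), 6 rose on HFHC, and of the 20 genes with a promoter but no string, 13 rose. Gins1, Gins2, Gins4, Mcm4, Pole and Prim2 had no promoter in the table. A match is a stretch of letters and not a shown binding site, and no match says only that these letters are not in this window.

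On HFHC most replication genes were higher after Mdm2ASO, and on CDAHFD most were not called. In the limma test across all genes (adjusted p under 0.05 over all genes tested), 22 of 35 rose and 0 fell on HFHC, where 30.6% of all 17441 genes tested were called and 16.8% rose. Of all 35 log2 fold changes on HFHC, 33 were positive and their median was 0.79, against -0.006 over all genes tested. On CDAHFD 2 of 35 rose (Mcm10 and Tk1) and 1 fell (Mcm2), where 13.0% of all 16803 genes were called, 6.12% rising and 6.86% falling. The median log2 fold change there was -0.12, against -0.002 over all genes. On CDAHFD 25 of the 35 log2 fold changes were negative, against 8443 of 16803 over all genes tested. A change between diets is tested by the difference of the within-diet log2 fold changes, CDAHFD minus HFHC. That difference was below 0 with adjusted p under 0.05 for 17 of 35 genes and above 0 for 0, where 23.5% of 16333 genes were called with 13.6% lower and 9.83% higher on CDAHFD. All 35 genes passed the low-value filter in each table. The heat map of all libraries shows this as a block of warm colours in the 3 Mdm2ASO columns on HFHC and mixed colours on CDAHFD.

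**Figure D1:**
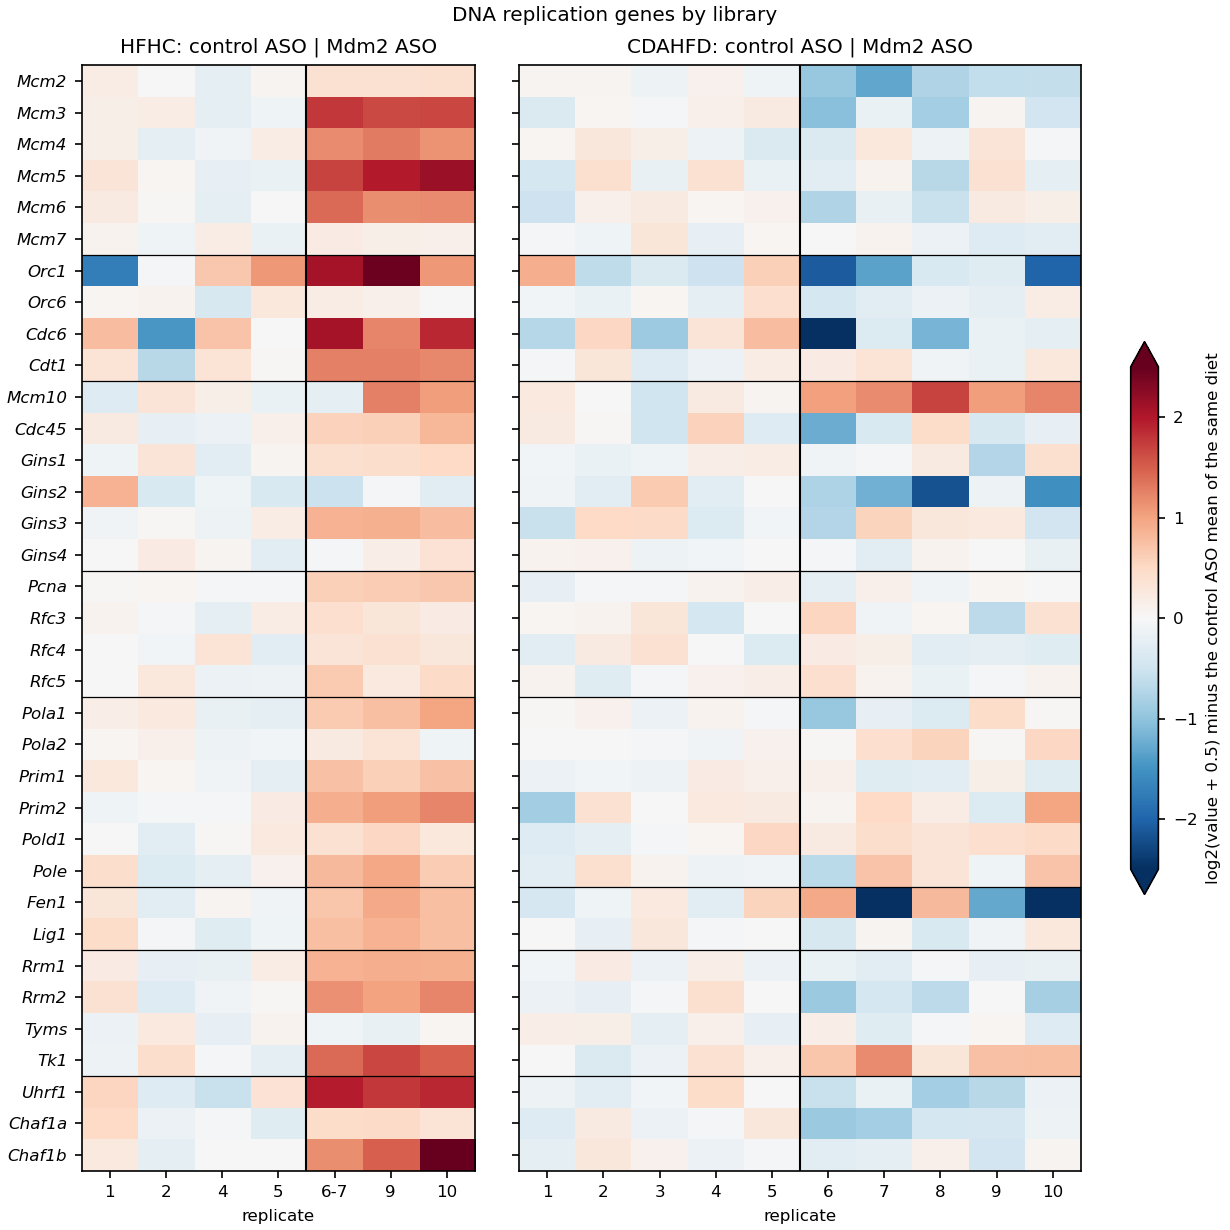
Each row is a replication gene and each column a library, with rows grouped by role. Colour gives log2(value + 0.5) minus the mean of the control ASO libraries on the same diet, the vertical line parts control from Mdm2 ASO libraries, and column 6-7 stands for the identical replicates. On HFHC 25 of 35 genes had every Mdm2 ASO library above every control library, and on CDAHFD 1 gene, Mcm10, did.

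The groups did not overlap for 25 of 35 genes on HFHC, all with Mdm2ASO above, where 20.7% of all genes tested did so. On CDAHFD they did not overlap for 1 gene above (Mcm10, background 4.95%) and 1 below (Mcm2, background 5.62%). Control replicate 1 on HFHC held the highest control value in 15 of 35 genes, and Mdm2ASO replicate 6 on CDAHFD the lowest Mdm2ASO value in 17. Leaving out each HFHC library in turn left 16 to 22 genes called, and 20.4% to 28.5% of all genes tested, against 30.6% with all libraries. There were 16 called without the library of replicates 6 and 7 (26.9% of all genes) and 16 without Mdm2ASO replicate 9 (20.4%). Leaving out Mdm2ASO replicate 9 on CDAHFD raised the count there from 3 to 5, adding Gins2 and Rrm2, both lower. The share of all genes called went from 13.0% to 11.2% in that fit. Under quantile normalization 14 genes rose on HFHC and 0 fell, where 35.6% of all genes were called. That scaling moved the median log2 fold change of all HFHC genes from -0.006 to -0.11 and their split from 2932 higher and 2399 lower to 2482 and 3725. It also moved the median of all differences between diets from 0.006 to 0.104, with 2540 higher and 1988 lower on CDAHFD against 1606 and 2226.

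Counted reads per library, in M (megareads), were 17.8 to 18.8 on HFHC and 22.4 to 31.5 on CDAHFD. Mdm2 itself went from 945 ± 25.6 (SD, n = 4) to 362 ± 58.2 (SD, n = 3) on HFHC and from 1565 ± 87.7 (SD, n = 5) to 647 ± 124 (SD, n = 5) on CDAHFD, so the target was lower in the labelled groups of both. Hepatocyte markers were abundant throughout, with 0 of 10 called on either diet. Markers of other cell types were called on HFHC too, most of them higher and those of cholangiocytes lower. Over all genes tested there, 16.8% rose and 13.8% fell. The summed value of the neutrophil and granulocyte precursor markers (10 of 10 rose) was 256 to 515 in control libraries and 2761 to 3979 after Mdm2ASO. The sum of the erythroid markers (9 of the 10 in the table rose) was 1916 to 3490 in controls and 7028 to 16768 after Mdm2ASO. Kupffer cells had 6 of 10 higher, monocytes and macrophages 7 of 9, B and plasma cells 5 of 8, T and NK cells 3 of 9, platelets 5 of the 5 tested of 6, sinusoidal endothelial cells 5 of 7, stellate cells 5 of 8, and cholangiocytes 5 of 7 lower. On CDAHFD the neutrophil sum was 281 to 527 in controls and 215 to 513 after Mdm2ASO, with Ctsg at 0 in every library, and the erythroid genes Gata1 and Rhag were at 0 in CDAHFD controls. The B and plasma cell sum on CDAHFD was 185 to 358 in controls and 383 to 690 after Mdm2ASO. The platelet sum was 213 to 245 in controls and 271 to 421 after Mdm2ASO, and the sums of the other cell types overlapped. The only marker calls on CDAHFD were 1 Kupffer cell gene lower, 1 B cell gene higher and 1 platelet gene higher, and Gp1bb was at 0 in every library. The part of these cells in the replication genes' rise was not tested, and in whole liver more cells of a type cannot be told apart from more RNA per cell.

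Of the 6 genes of the helicase ring, 5 rose on HFHC, with a median log2 fold change of 1.23 over all 6. Values below are deposited normalized counts, in replicate order (1, 2, 4 and 5 for HFHC controls, then 6, 9 and 10 for Mdm2ASO, and 1 to 5 and 6 to 10 on CDAHFD). Mcm3 read 102, 106, 78.7 and 85.9 in HFHC controls and 315, 293 and 296 after Mdm2ASO. Mcm5 read 61.9, 51.6, 43.1 and 43.97 in HFHC controls and 161, 199 and 222 after Mdm2ASO. For both genes the lowest Mdm2ASO library stood above every control by a wide gap. The log2 fold changes were 1.70 ± 0.13 (SE, adjusted p = 1.34e-05) for Mcm3 and 1.94 ± 0.18 (adjusted p = 4.38e-05) for Mcm5, which is 3.25-fold and 3.85-fold. Mcm4 read 90.8, 69.6, 77.7 and 93.9 in HFHC controls and 187, 202 and 181 after Mdm2ASO (log2 fold change 1.20 ± 0.14, adjusted p = 2.24e-04). Mcm6 read 134, 117, 96.00 and 114 in controls and 307, 256 and 262 after Mdm2ASO (1.26 ± 0.14, adjusted p = 1.27e-04). In both genes every Mdm2ASO library was above every control.

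Mcm2 and Mcm7 had the smallest log2 fold changes of the ring genes on HFHC. Mcm2 read 149, 130.2, 111 and 138 in controls and 171, 170.2 and 173 after Mdm2ASO, a log2 fold change of 0.38 ± 0.13 with adjusted p = 0.0460. The Mdm2ASO libraries lay above the controls, yet the call was lost in 6 of 7 leave-one-out fits and with DESeq2. Mcm7 read 335, 292, 359 and 281 in HFHC controls and 364, 349.9 and 346 after Mdm2ASO. Its groups overlapped, and the log2 fold change of 0.16 (95% interval -0.07 to 0.40) did not pass (adjusted p = 0.274). Products of all 6 genes sit in one ring in equal number; whether their fold changes differed from each other was not tested.

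On CDAHFD 1 of the 6 ring genes was called. Mcm2 fell, from 162, 163, 141, 168 and 143 in controls to 79.6, 62.8, 91.8, 101 and 103, so every Mdm2ASO library was below every control (log2 fold change -0.84 ± 0.16, adjusted p = 0.00482). Mcm3 read 85.8, 115, 106, 120.0 and 129 in CDAHFD controls and 53.4, 98.4, 61.2, 116 and 79.2 after Mdm2ASO, overlapping groups with a log2 fold change of -0.49 (95% interval -0.96 to -0.02). For Mcm5 the CDAHFD libraries read 46.1, 83.2, 55.04, 82.2 and 56.1 in controls and 51.3, 66.99, 38.5, 82.3 and 53.2 after Mdm2ASO, also overlapping. Mcm4, Mcm6 and Mcm7 had log2 fold changes of 0.02, -0.23 and -0.13 and were not called; the sign of Mcm4 turned under quantile normalization and in some leave-one-out fits. The difference between diets passed for Mcm2 to Mcm6. It was -2.19 ± 0.29 for Mcm3 (SE, adjusted p = 2.33e-05), -2.09 ± 0.34 for Mcm5 (adjusted p = 1.73e-04) and -1.23 ± 0.21 for Mcm2 (adjusted p = 3.62e-04). For Mcm7 it was -0.30 (95% interval -0.65 to 0.06) and did not pass.

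**Figure D2:**
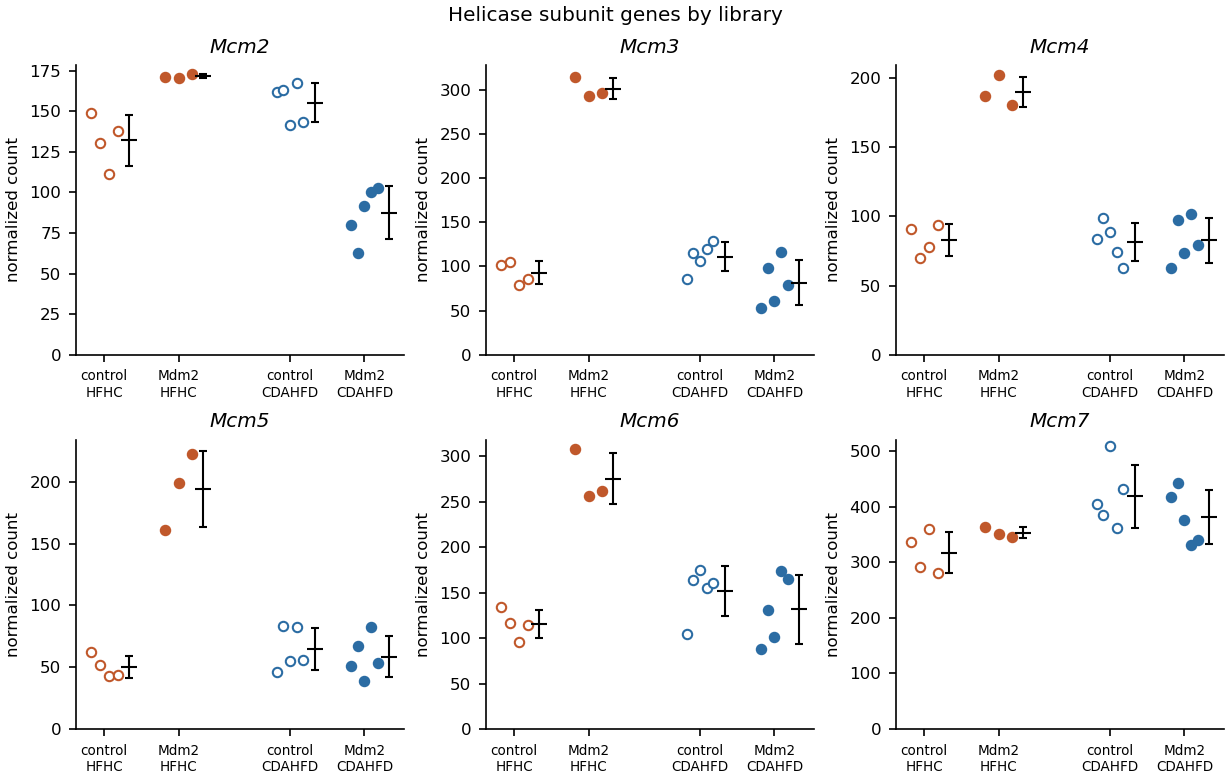
Normalized counts of the 6 helicase ring genes, 1 point per library, open for control ASO and filled for Mdm2 ASO, with orange for HFHC and blue for CDAHFD. Bars give the mean ± SD; the tables of both diets were normalized separately, so heights are compared within a diet. On HFHC Mcm2 to Mcm6 separate fully with Mdm2 ASO above, and on CDAHFD Mcm2 separates with Mdm2 ASO below and the other 5 genes overlap.

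Of the origin and licensing genes, 2 of 4 rose on HFHC and none was called on CDAHFD. Cdt1, which brings the ring to origins and is destroyed once S phase starts, read 74.3, 35.9, 74.4 and 59.96 in HFHC controls and 141, 142 and 135 after Mdm2ASO. The Mdm2ASO libraries were nearly equal and all above the controls (log2 fold change 1.24 ± 0.25, adjusted p = 0.00473). Cdc6, the ATPase that works with the origin complex, was scarce, at 12.4, 2.25, 11.9 and 7.00 in controls and 31.5, 17.02 and 27.3 after Mdm2ASO. Its log2 fold change of 1.72 ± 0.55 passed (adjusted p = 0.0395), but the call was lost in 4 of 7 leave-one-out fits. Orc1, the origin complex's cell-cycle regulated subunit, was rarer still: 0, 1.12, 2.16 and 3.00 in controls and 6.48, 8.51 and 3.03 after Mdm2ASO. The groups did not overlap, but its log2 fold change of 1.87 ± 0.73 was not called (adjusted p = 0.0811). Orc6, the small subunit, overlapped, at 67.95 to 109 against 89.9 to 103.

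On CDAHFD Cdc6 read 6.44, 15.7, 5.50, 13.7 and 18.7 in controls and 0, 8.37, 4.53, 9.57 and 9.05 after Mdm2ASO. Orc1 read 11.8, 3.70, 4.59, 4.03 and 9.35 in CDAHFD controls and 1.05, 2.09, 4.53, 4.79 and 1.13 after Mdm2ASO. Both genes' groups overlapped and neither gene passed (adjusted p = 0.284 and 0.168). Cdt1 overlapped as well, at 87.2 to 136 in controls and 97.6 to 138 after Mdm2ASO. The differences between diets passed for Cdt1 (-1.13 ± 0.29, adjusted p = 0.00923) and for Orc1 (-3.08 ± 0.91, adjusted p = 0.0190), the latter on values of under 12 per library and not without HFHC Mdm2ASO replicate 9. Cdc6, with -3.01 ± 1.09, did not pass (adjusted p = 0.0527). It did pass with DESeq2, with edgeR, with a pseudocount of 1, under quantile normalization, with replicates 6 and 7 as 2 libraries and in 5 of 17 leave-one-out fits.

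Among the 6 helicase activation genes, Cdc45 and Gins3 rose on HFHC. Cdc45, part of the active helicase, read 36.1, 26.9, 28.04 and 33.98 in controls and 46.3, 47.3 and 55.6 after Mdm2ASO (log2 fold change 0.67 ± 0.21, adjusted p = 0.0355), and 6 of 7 leave-one-out fits lost the call. The 4 GINS subunits form a single complex, but only Gins3 was called, at 16.5, 17.96, 16.2 and 19.99 in controls and 32.4, 33.1 and 30.3 after Mdm2ASO (0.84 ± 0.23, adjusted p = 0.0201). That call was lost without the library of replicates 6 and 7 and without Mdm2ASO replicate 9. Gins1 and Gins4 had log2 fold changes of 0.44 and 0.16 and did not pass. Gins2, of which 67.3% of the exonic length is shared with Gse1 on the opposite strand, read 90.8, 38.2, 46.4 and 37.98 in HFHC controls, where replicate 1 stood far above the rest, and 34.3, 48.2 and 41.4 after Mdm2ASO. On CDAHFD Gins2 read 25.7, 22.2, 43.1, 22.6 and 27.1 in controls and 15.7, 11.5, 5.67, 24.9 and 9.05 after Mdm2ASO, -1.17 ± 0.38 on the log2 scale (adjusted p = 0.0598), and it passed with DESeq2, with quantile normalization and without Mdm2ASO replicate 9.

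Mcm10, which helps the loaded helicase start and recruits polymerase alpha, was called on CDAHFD but not on HFHC. On HFHC it read 574, 896, 797 and 639.6 in controls and 612, 1705 and 1483 after Mdm2ASO, so the library of replicates 6 and 7 lay among the controls and the other two lay above them. The log2 fold change of 0.69 ± 0.32 did not pass (adjusted p = 0.129); without that library it was 1.15 and passed, and DESeq2 called it with all libraries. On CDAHFD it read 1814, 1516, 1082, 1785 and 1603 in controls and 3119.8, 3489.7, 4974, 3150.3 and 3558 after Mdm2ASO. Every Mdm2ASO library was above every control, 2.35-fold on average (log2 1.23 ± 0.15, adjusted p = 3.11e-04), and the call held under all 17 alternatives. Its difference between diets, 0.54 (95% interval -0.20 to 1.27), did not pass, so the size of its response was not shown to depend on diet. Mcm10 was also abundant for its class. Per kilobase of exon, with all annotated exons of a gene merged, its control mean ranked 3 of 35 on both diets. It was 94.5 on HFHC and 203 on CDAHFD, below Pcna and Gins4.

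**Figure D3:**
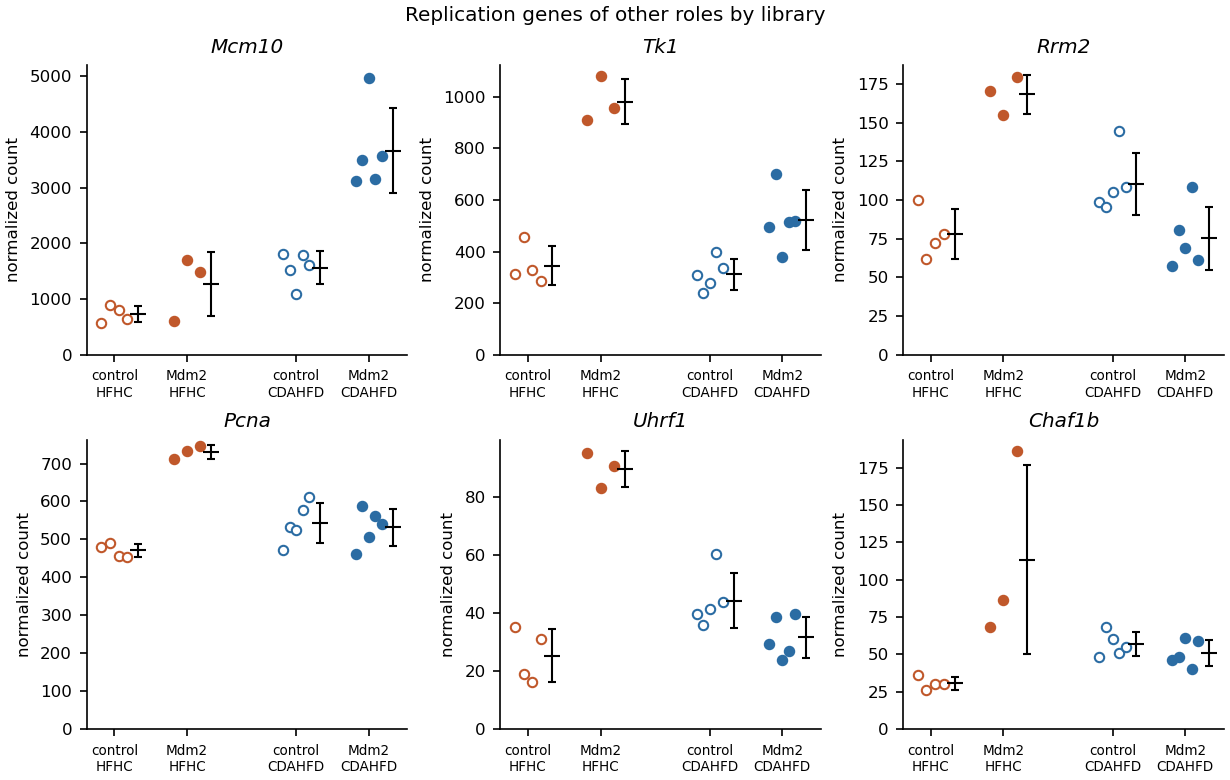
Normalized counts of 6 genes of other roles, 1 point per library, open for control ASO and filled for Mdm2 ASO, orange for HFHC and blue for CDAHFD, with mean ± SD. Mcm10 and Tk1 are higher after Mdm2 ASO on CDAHFD, Rrm2, Pcna, Uhrf1 and Chaf1b separate on HFHC and overlap on CDAHFD, and 1 Chaf1b library stands apart.

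Pcna, the sliding clamp, was the most abundant member per kilobase of exon in controls of both diets (196 on HFHC and 226 on CDAHFD). It read 481, 489, 457 and 455 in HFHC controls and 711, 734 and 747 after Mdm2ASO. The spread within each group was small and the gap large, giving a log2 fold change of 0.63 ± 0.07 (adjusted p = 1.41e-04). On CDAHFD Pcna read 471, 533, 525, 577 and 611 in controls and 461, 588, 507, 561 and 541 after Mdm2ASO, with a 95% interval of -0.24 to 0.18 on the log2 scale. Its CDAHFD groups overlapped, and the difference between diets passed (-0.67 ± 0.13, adjusted p = 8.53e-04). Pcna is also known as a p53 target. Of the clamp loader subunits, Rfc5 rose on HFHC (113 to 150.4 in controls, 148 to 195 after Mdm2ASO, log2 0.46, adjusted p = 0.0423), with overlapping groups and the call lost in 5 of 7 leave-one-out fits. Rfc3 and Rfc4 had 0.31 and 0.33 and were not called. On CDAHFD the 3 loader genes lay between -0.09 and 0.08, and none passed the test of the difference between diets.

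All 6 polymerase and primase genes had positive log2 fold changes on HFHC, and 4 passed. Prim2, the large primase subunit, read 28.9, 30.3, 30.2 and 35.98 in controls and 59.3, 65.3 and 73.8 after Mdm2ASO, clear of each other (log2 1.06 ± 0.19, adjusted p = 0.00250). Prim1, the catalytic primase subunit, read 52.6, 44.9, 40.99 and 36.98 in controls and 72.2, 66.2 and 72.7 after Mdm2ASO (0.69 ± 0.18, adjusted p = 0.0191), a call lost in 3 of 7 leave-one-out fits, each without 1 of the Mdm2ASO libraries. Pola1, the catalytic subunit of polymerase alpha, read 65.03, 68.5, 50.7 and 48.97 in controls and 90.8, 97.4 and 114 after Mdm2ASO (0.79 ± 0.18, adjusted p = 0.00958). Those 3 subunits sit in one enzyme with Pola2, and Pola2 overlapped (194 to 231 against 197 to 269.6, log2 0.16). Pole, the leading strand polymerase, rose by 0.81 ± 0.23 (adjusted p = 0.0276), a call lost in 4 of 7 leave-one-out fits. Pold1, of the lagging strand polymerase, was at 115 to 164 in controls and 167 to 199 after Mdm2ASO, not overlapping but not called (log2 0.39, adjusted p = 0.0666).

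None of the 6 was called on CDAHFD, with log2 fold changes from -0.20 for Pola1 to 0.38 for Pold1. Pold1 read 124, 132, 152, 160.3 and 221 in controls, where replicate 5 was high, and 181, 209, 193, 207 and 217 after Mdm2ASO; among the alternatives run it passed only without that control. The difference between its fold changes on the diets was -0.01 (95% interval -0.47 to 0.45), with a sign that turned under quantile normalization and in some leave-one-out fits. The differences for Pola1 (-0.996, adjusted p = 0.0393) and Prim1 (-0.80, adjusted p = 0.0225) passed in the fit of all libraries. Pola1 was lost in 11 of 17 leave-one-out fits, under quantile normalization, without the low-value filter and with the replicate number as a block (adjusted p = 0.0823). Prim1 was lost without the library of HFHC replicates 6 and 7, without HFHC Mdm2ASO replicate 10, under quantile normalization and with the block (adjusted p = 0.134). The block fit also left out CDAHFD control replicate 3 and Mdm2ASO replicates 7 and 8, which had no separate HFHC library of that number. Its losses therefore cannot be credited to the block alone.

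The genes that finish lagging strand fragments both rose on HFHC. Lig1, the ligase that seals them, read 141, 98.8, 83.1 and 94.9 in controls and 173, 186 and 174 after Mdm2ASO (log2 0.79 ± 0.18, adjusted p = 0.00865). On CDAHFD it overlapped, at 93.4 to 132 and 81.7 to 129, and the difference between diets passed (-0.90 ± 0.25, adjusted p = 0.0139), though not with the replicate number as a block (adjusted p = 0.0571). Fen1, the nuclease that trims them, read 96.00, 63.99, 81.98 and 73.95 in HFHC controls and 127, 151 and 131 after Mdm2ASO (0.80 ± 0.17, adjusted p = 0.00597). On CDAHFD it read 2.15, 2.77, 3.67, 2.42 and 4.67 in controls and 6.28, 0, 5.67, 0.957 and 0 after Mdm2ASO, a handful of reads per library that could not resolve a change (95% interval -2.75 to 0.69). In GENCODE M21, 84.2% of the Fen1 exonic length is shared with genes on the opposite strand (Tmem258 and Gm10143).

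That overlap went with the level of Fen1 in the tables. Among genes with a control mean of at least 20 in either table, the median log2 ratio of control means, CDAHFD over HFHC, was 0.35 for 9004 genes with no opposite-strand overlap and -4.07 for 34 genes with more than 75%. It was -0.99 for 86 genes at 50 to 75%. Fen1 stood at -4.45, Chaf1a (52.5% shared with Ubxn6) at -1.18 and Gins2 (67.3% shared with Gse1) at -0.91. The library kit was strand-specific, and the strand setting of the read counting is not given in the sources used here, so the cause was not tested. Reads of these 3 genes cannot be told apart from their partners' reads in a table counted without strand. Without them, 21 of 32 genes rose on HFHC, and 16 of 32 differed between diets.

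**Figure D4:**
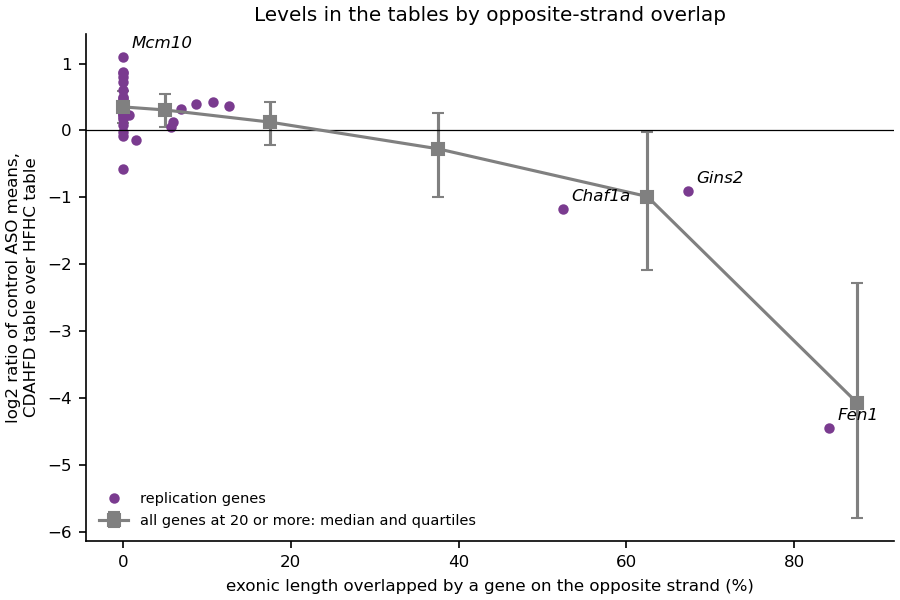
The x axis gives the percent of a gene's exonic length overlapped by a gene on the opposite strand, and the y axis the log2 ratio of the control ASO means, CDAHFD table over HFHC table. Grey squares give medians with quartiles over all genes at 20 or more in either table and purple points the replication genes. Chaf1a, Gins2 and Fen1 are the 3 members beyond 50%, and they lie below 0.

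Of the 4 nucleotide supply genes, 3 rose on HFHC. Tk1, the S-phase thymidine kinase, read 312, 458, 327 and 286 in controls and 909, 1080.1 and 956 after Mdm2ASO (log2 1.52 ± 0.15, adjusted p = 6.43e-05). Rrm2, the S-phase limited subunit of ribonucleotide reductase, read 100.1, 61.7, 72.3 and 77.95 in controls and 170.4, 155 and 179.8 after Mdm2ASO (1.12 ± 0.17, adjusted p = 0.00114). Rrm1, its large subunit, read 199, 152, 153 and 197 in controls and 319.5, 325 and 322 after Mdm2ASO (0.89 ± 0.13, adjusted p = 6.97e-04). In all 3 genes every Mdm2ASO library was above every control. Tyms, which makes thymidylate, did not follow: it read 115, 150.4, 110.0 and 135 in controls and 118, 111 and 130.3 after Mdm2ASO (log2 -0.08, 95% interval -0.42 to 0.25).

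Tk1 was the other gene called higher on CDAHFD, at 308, 239.5, 277, 399 and 337 in controls and 494, 701, 379.8, 514 and 517 after Mdm2ASO. Mdm2ASO replicate 8 lay below the highest control, and the rest lay above all controls (log2 0.73 ± 0.16, adjusted p = 0.00993). Its rise was smaller than on HFHC (-0.79 ± 0.25, adjusted p = 0.0267), a difference lost without HFHC control replicate 1, without HFHC control replicate 5 and without HFHC Mdm2ASO replicate 9. Rrm2 leaned the other way on CDAHFD, at 98.7, 95.3, 105, 145 and 108 in controls and 57.6, 80.6, 69.2, 108 and 61.1 after Mdm2ASO. That log2 value of -0.57 ± 0.20 was not called (adjusted p = 0.0744), but passed with DESeq2, with quantile normalization and without Mdm2ASO replicate 9. The difference between diets was -1.70 ± 0.28 for Rrm2 (adjusted p = 2.31e-04) and -1.07 ± 0.17 for Rrm1 (adjusted p = 1.24e-04), and both held in every leave-one-out fit.

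Of the genes that act on chromatin behind the fork, Uhrf1 and Chaf1b rose on HFHC. Uhrf1, which recruits the maintenance DNA methyltransferase, read 35.1, 19.1, 16.2 and 30.98 in controls and 95.4, 83.2 and 90.9 after Mdm2ASO (log2 1.87 ± 0.29, adjusted p = 0.00106), 3.67-fold. Chaf1b, a subunit of the histone chaperone CAF-1, read 36.1, 25.8, 30.2 and 29.98 in controls and 68.5, 86.1 and 186 after Mdm2ASO (1.75 ± 0.32, adjusted p = 0.00292). Mdm2ASO replicate 10 was far above the other 2 libraries, and without it the log2 fold change was 1.33 and still called. Chaf1a, the large CAF-1 subunit, read 103, 66.2, 70.1 and 58.96 in controls and 100.02, 101 and 91.9 after Mdm2ASO and was not called (adjusted p = 0.146). On CDAHFD Uhrf1 read 39.7, 36.1, 41.3, 60.4 and 43.9 in controls and 29.3, 38.7, 23.8, 26.8 and 39.6 after Mdm2ASO, overlapping (log2 -0.48, adjusted p = 0.207). Chaf1b overlapped too, at 48.3 to 68.4 and 40.2 to 61.2. All 3 genes differed between diets: Uhrf1 by -2.36 ± 0.37 (adjusted p = 1.22e-04), Chaf1b by -1.91 ± 0.36 (adjusted p = 7.26e-04) and Chaf1a by -0.97 ± 0.32 (adjusted p = 0.0346). The Chaf1a difference was lost in 10 of 17 leave-one-out fits and with the replicate block (adjusted p = 0.132). Chaf1a shares 52.5% of its exonic length with Ubxn6, so the limit given above for overlapped genes holds for its difference.

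**Figure D5:**
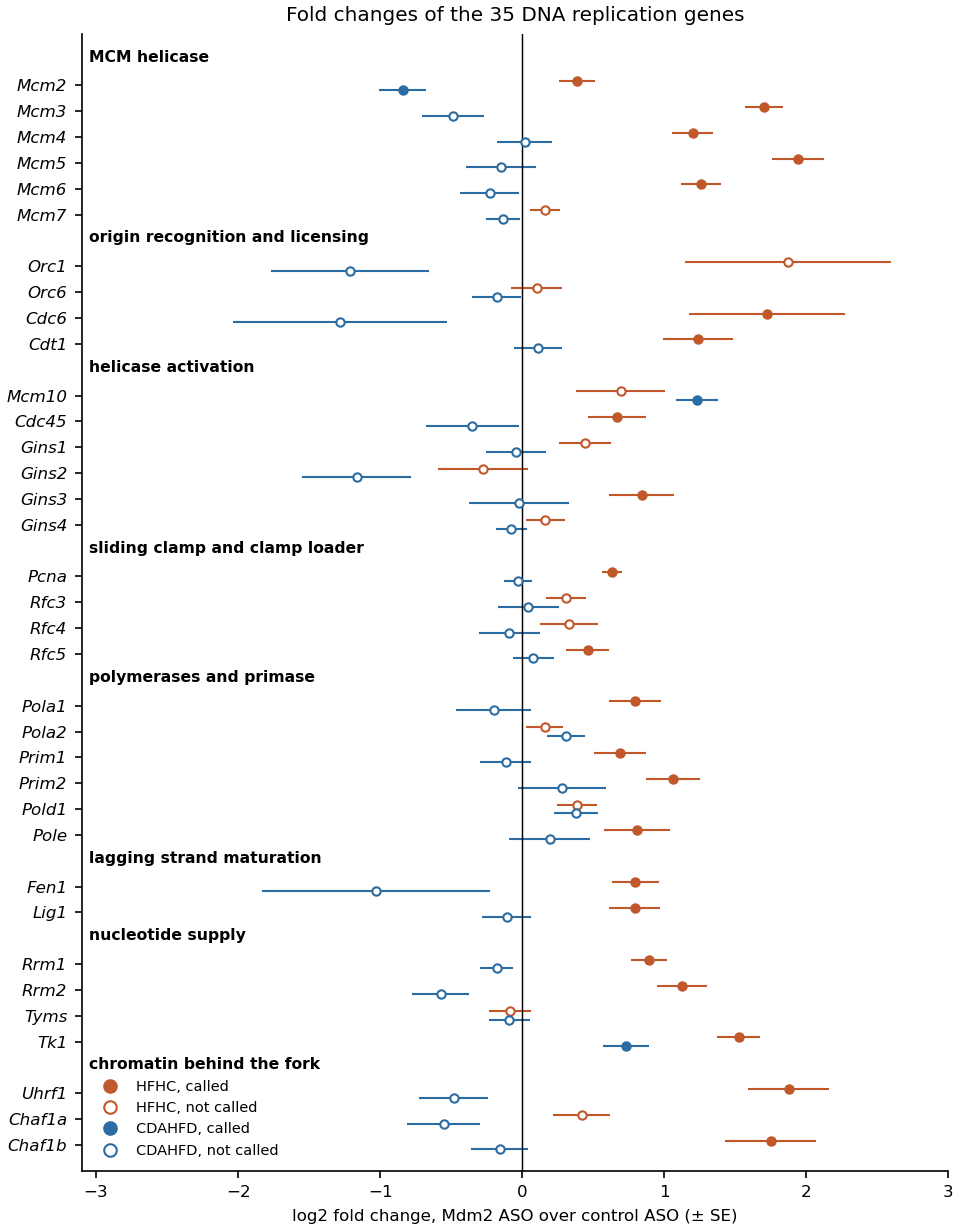
Log2 fold changes, Mdm2 ASO over control ASO, with standard errors, for the 35 genes by role; orange is HFHC, blue is CDAHFD, filled symbols passed the limma test at adjusted p under 0.05. Orange symbols lie mostly right of 0 and 22 are filled. Blue symbols lie on both sides of 0, with 25 of 35 to the left, and 3 are filled (Mcm10, Tk1 and Mcm2).

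Of 49 further replication genes, 21 rose and 3 fell on HFHC (median log2 fold change 0.35 over all 49). On CDAHFD 2 rose and 1 fell (median -0.02), and the difference between diets was lower for 15 and higher for 2. Over all genes tested, 16.8% rose and 13.8% fell on HFHC, and 6.12% rose and 6.86% fell on CDAHFD. The difference over all genes was lower for 13.6% and higher for 9.83%. Pclaf, the Pcna-binding factor of S phase, went from 9.65 ± 3.52 (SD, n = 4) to 70.5 ± 5.11 (SD, n = 3) on HFHC (log2 2.87, adjusted p = 1.25e-04). Samhd1, which breaks nucleotides down, also rose, from 688 to 1725 (log2 1.32, adjusted p = 6.44e-06). On CDAHFD the helicase gene Recql4 rose (81.4 to 98.3 in controls, 143 to 224 after Mdm2ASO, adjusted p = 0.00212), as did the clamp loader gene Rfc2 (log2 0.32, adjusted p = 0.0246), a call lost without Mdm2ASO replicate 8 (adjusted p = 0.0663). Dbf4, the regulatory subunit of the kinase that fires origins, fell (74.03 to 132 against 25.1 to 59.9, log2 -1.12, adjusted p = 0.0139).

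Of 13 E2F and RB family genes, 6 rose and 0 fell on HFHC (median log2 fold change 0.31 over all 13). On CDAHFD 0 rose and 1 fell (median -0.02). Over all genes tested, 16.8% rose and 13.8% fell on HFHC, and 6.12% rose and 6.86% fell on CDAHFD. Rb1 and Rbl1, members of the RB family, were among the 6 that rose on HFHC. Their log2 fold changes were 1.45 and 1.25 (adjusted p = 1.47e-05 and 5.36e-04). The rest of the 6 are not named here. Of all 13 log2 fold changes on HFHC, 8 were positive and 5 negative. E2f8, an E2F repressor, was the gene that fell on CDAHFD, at 207 to 305 in controls and 80.5 to 124 after Mdm2ASO (log2 -1.20, adjusted p = 4.22e-04).

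Of 15 mitosis genes, 9 rose and 0 fell on HFHC (median log2 fold change 0.73). On CDAHFD 0 rose and 8 fell (median -1.20), and all 15 differed between diets. Over all genes tested, 16.8% rose on HFHC, 6.86% fell on CDAHFD and 23.5% differed between diets. Mki67, the marker of cycling cells, read 153 to 254 in HFHC controls and 538 to 659 after Mdm2ASO (log2 1.62, adjusted p = 9.96e-05). On CDAHFD it read 259.9 to 493 in controls and 74.8 to 305 after Mdm2ASO (log2 -1.23, adjusted p = 0.0151). Ccnb1, the mitotic cyclin, read 44.9 to 208 in CDAHFD controls and 13.6 to 33.9 after Mdm2ASO (log2 -2.10, adjusted p = 0.00301). Against those 8 of 15, 1 of 35 replication genes fell on CDAHFD. Whether these shares differ was not tested.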

How the data were processed

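Per the submitters' processing notes, reads were aligned with STAR 2.7.10b to GRCm39 and counted with featureCounts of Subread 2.0.3. The deposited signal is TMM-normalized read counts, 1 table per diet, per the labels. The values are whole reads times a constant per library: 100% were whole within 0.005 of a read. Mdm2ASO replicates 6 and 7 on HFHC, identical in all 33235 genes, were counted as 1 library.

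Within each table, log2(value + 0.5) was fitted with limma 3.58.1 (trend), for genes reaching 1 in enough libraries to fill the smaller group, with Benjamini-Hochberg adjustment over all genes and a threshold of 0.05. Fold changes are on that scale, a difference of mean logs, and for genes at low values they can differ from the ratio of the mean values. The difference between diets used all 4 groups. Alternatives used edgeR 4.0.16 and DESeq2 1.42.0 on recovered reads. Exonic length and strand came from GENCODE M21 (32123 of 33235 identifiers matched). Exonic length is that of all exons of a gene merged over its annotated transcripts. Ranks per kilobase of exon therefore depend on the transcripts annotated for each gene.

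The replication genes, pathway lists and markers were chosen with earlier results of these data known. All 35 members are named; others were among up to 5 called genes of smallest p per list and diet. Replicate numbers recur across diets, but deviations of same-numbered libraries correlated at -0.0659 to 0.105. Pairing by number was used only in the replicate block alternative.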

Additional observations from a re-analysis of the deposited data

Results flagged for a closer look

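Libraries of a group were compared with each other for each gene in groups of 4 or 5, and 5 of 105 such sets had a library far from the rest, where chance gives about 1 in 20. Gins2 read 90.8 in HFHC control replicate 1 and 43.1 in CDAHFD control replicate 3, each above its group. Mcm6 read 104 in CDAHFD control replicate 1, below its group. Rrm2 read 145 in CDAHFD control replicate 4, above its group. Mcm10 read 4974 in CDAHFD Mdm2ASO replicate 8, above a group that was itself above all controls.

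The effect of Mdm2ASO differed between diets in 17 of 35 genes by limma's test of the difference (log2 fold change on CDAHFD minus that on HFHC), each lower on CDAHFD. For the helicase ring it was -1.23 in Mcm2, -2.19 in Mcm3, -1.18 in Mcm4, -2.09 in Mcm5 and -1.49 in Mcm6. For licensing it was -3.08 in Orc1 and -1.13 in Cdt1. At the fork it was -0.67 in Pcna, -0.996 in Pola1, -0.80 in Prim1 and -0.90 in Lig1. For nucleotide supply it was -1.07 in Rrm1, -1.70 in Rrm2 and -0.79 in Tk1. For chromatin it was -2.36 in Uhrf1, -0.97 in Chaf1a (52.5% of its exonic length shared with Ubxn6) and -1.91 in Chaf1b. In 11 of the 17 (Mcm2 to Mcm6, Cdt1, Pcna, Rrm1, Rrm2, Uhrf1 and Chaf1b) the call held under all 26 alternatives.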

How the results depend on the processing

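On HFHC 14 of 22 calls held under all 15 alternatives (Mcm3 to Mcm6, Cdt1, Pcna, Prim2, Fen1, Lig1, Rrm1, Rrm2, Tk1, Uhrf1 and Chaf1b). Quantile normalization gave 14 called genes in place of 22, losing Mcm2, Cdc6, Cdc45, Gins3, Rfc5, Pola1, Prim1 and Pole. Counting replicates 6 and 7 as 2 libraries gave 26, and raised the share of all genes called from 30.6% to 39.3%. On CDAHFD all 3 calls held under 17 alternatives, and DESeq2 and quantile normalization each gave 5, adding Gins2 and Rrm2. The share of all genes called there was 17.6% with DESeq2 and 13.8% with quantile normalization, against 13.0%. Leave-one-out counts were 3 to 5 for the replication genes on CDAHFD and 1232 to 2283 for all genes there, against 2181; 1232 came without control replicate 2 and 1426 without Mdm2ASO replicate 8. With the replicate number as a block, 14 genes differed between diets in place of 17, and 3032 of all genes in place of 3832. Of the 14, 13 were shared, with Pola1, Prim1, Lig1 and Chaf1a lost and Cdc45 gained. That fit also left out CDAHFD control replicate 3 and Mdm2ASO replicates 7 and 8, so the losses cannot be credited to the block alone.

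Signs turned for genes that were not called, with causes not tested. Orc6 on HFHC was -0.16 under quantile normalization and -0.034 to 0.19 in leave-one-out fits, and Gins2 on HFHC was -0.41 to 0.0088. On CDAHFD, Mcm4 was -0.017 under quantile normalization and Gins3 1.7e-05 with DESeq2. Leave-one-out ranges on CDAHFD were -0.074 to 0.11 for Mcm4, -0.16 to 0.13 for Gins1, -0.17 to 0.15 for Gins3, -0.081 to 0.019 for Pcna, -0.081 to 0.22 for Rfc3, -0.17 to 0.0063 for Rfc4 and -0.0080 to 0.14 for Rfc5. The difference between diets was 0.18 for Pold1 under quantile normalization and -0.091 to 0.12 leaving out libraries. For Tyms it was 0.030 with DESeq2, 0.023 with edgeR, 0.24 under quantile normalization and -0.0889 to 0.061 leaving out libraries. Few counted reads limit the precision for Orc1, for Cdc6 and for Fen1 on CDAHFD, at under 32 normalized counts per library; the CDAHFD libraries were the deeper ones, and the cause of the low Fen1 values there was not tested.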

Other observations

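Per kilobase of exon, the same 5 genes led the control libraries on both diets: Pcna, Gins4, Mcm10, Mcm7 and Tk1. Of these, Tk1 and Pcna rose on HFHC, and Tk1 and Mcm10 rose on CDAHFD. The levels of Gins4 and Mcm7 were not called as changed on either diet. Orc1 and Cdc6 were among the 3 lowest on both, with Fen1 lowest on CDAHFD.

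The level of genes with opposite-strand neighbours differed between the tables beyond the replication genes. Among genes with a control mean of at least 20 in either table, 2.0% of the 9004 without overlap and 88.2% of the 34 with more than 75% overlap had a log2 ratio of CDAHFD over HFHC control means below -1. Tables of both diets hold the same 33235 genes. The reason for the pattern was not tested.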
